A study of Caenorhabditis elegans with 2 samples.

Results

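The chaperonin CCT, also called TRiC, is a chamber of stacked rings in the eukaryotic cytosol that folds newly made proteins with the use of ATP, among them actin and tubulin. Each ring is built from related subunits, and in Caenorhabditis elegans each subunit is encoded by a gene of its own. Described here are the 8 genes cct-1 to cct-8, taken by their Ensembl symbols, out of 19973 protein-coding genes of the nuclear chromosomes. They were chosen as a gene family with earlier results of these data known, so their values are a description and carry no test.

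The data are chromatin immunoprecipitation followed by sequencing (ChIP-seq) of ARID-1, which carries an ARID, a DNA-binding domain named for AT-rich sequence. The worms were of strain RW12194, in which the allele st12194 adds TY1, EGFP and 3xFLAG to arid-1 at its own locus on chromosome V by CRISPR, and the tagged protein was pulled down with an antibody against GFP. Newly hatched larvae were starved after bleaching for synchrony and whole animals were collected as L4 larvae, at 47 hours. There is 1 group with 2 replicates, which the labels call biological and tie to separate biosamples, and values of an untagged or input control were not used here. Whole animals were used, so weak binding in all cells and strong binding in few cells cannot be told apart. In flies and yeast, members of the ARID family belong to complexes that remodel or modify chromatin.

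The conservative peak list of the series holds 2330 peaks on the ce11 build, 2306 of them nuclear. Signal is the height of a peak as the authors' lists give it, and how it was scaled from list to list is not stated in the sources used here. The irreproducible discovery rate (IDR) is low where 2 peak sets both rank a peak high. Peaks of the conservative list have an IDR of at most 0.01, which is a −log10 IDR of at least 2. A gene holds a summit here when the highest point of a peak lies within 500 bp of the gene's annotated 5' end. The ranked list of each replicate, with 40062 and 44274 peaks, also gives peaks that miss the threshold. No list gives read counts, so depth is unknown.

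The genes of the CCT subunits lie apart on 4 chromosomes. On chromosome II are cct-1 (8185443 to 8187601), cct-2 (8927741 to 8929815), cct-3 (2233540 to 2243539) and cct-4 (8283667 to 8285711), all on the plus strand. On chromosome III are cct-5 (4499188 to 4508114) and cct-6 (5853530 to 5855687), both on the minus strand. The gene cct-7 lies on chromosome V (1872246 to 1875505, plus strand) and cct-8 on chromosome IV (1087108 to 1093920, minus strand). The gene cct-8 has a further annotated transcript that starts 1749 bp from the 5' end used. For each of the 8 genes the next protein-coding gene upstream is read in the opposite direction, an arrangement found for 42.2% of all protein-coding genes.

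Of the 8 genes, cct-1, cct-5, cct-7 and cct-8 held a summit of the conservative list, against 5.68% of all protein-coding genes. The summits lay 256, 455, 291 and 434 bp upstream of the respective 5' ends, in sequence that the annotation gives as intergenic. No conservative summit lay inside the body of any of the 8 genes, and the share of all protein-coding genes without one was not computed. The genes cct-2, cct-3, cct-4 and cct-6 held none. The gene cct-6 held one in the other thresholded list of the series, in which 5.45% of all genes did.

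The sequences that follow are the 201 bases centred on the summit of the 4 conservative peaks, and the part of the same window at cct-6 that lies outside annotated exons. They are shown because they are the DNA on which the description rests. They are the RefSeq copy of WBcel235, the assembly of ce11, read 5' to 3' on the strand of the cct gene. Capitals mark matches to GAANNTTC, the core of the heat shock element, and the longest run of letters that windows of the 4 conservative peaks share.

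cct-8, chrIV:1094254-1094454, minus strand: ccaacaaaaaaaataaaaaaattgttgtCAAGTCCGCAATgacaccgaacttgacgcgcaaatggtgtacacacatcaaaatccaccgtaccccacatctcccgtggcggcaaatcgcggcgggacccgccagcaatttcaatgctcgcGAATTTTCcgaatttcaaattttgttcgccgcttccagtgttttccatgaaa
cct-1, chrII:8185087-8185287, plus strand: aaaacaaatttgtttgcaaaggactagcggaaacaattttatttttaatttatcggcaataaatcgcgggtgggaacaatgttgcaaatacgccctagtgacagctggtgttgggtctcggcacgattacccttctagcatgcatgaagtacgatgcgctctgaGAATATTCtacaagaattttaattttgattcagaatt
cct-7, chrV:1871855-1872055, plus strand: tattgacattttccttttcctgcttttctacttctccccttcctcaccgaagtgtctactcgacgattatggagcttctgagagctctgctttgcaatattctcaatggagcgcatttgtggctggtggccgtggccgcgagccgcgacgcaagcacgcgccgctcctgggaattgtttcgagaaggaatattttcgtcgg
cct-5, chrIII:4508469-4508669, minus strand: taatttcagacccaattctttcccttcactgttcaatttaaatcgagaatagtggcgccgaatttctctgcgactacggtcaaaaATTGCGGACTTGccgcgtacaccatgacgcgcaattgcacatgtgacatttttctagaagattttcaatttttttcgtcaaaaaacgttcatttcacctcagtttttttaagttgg
cct-6, chrIII:5855881-5856017, minus strand: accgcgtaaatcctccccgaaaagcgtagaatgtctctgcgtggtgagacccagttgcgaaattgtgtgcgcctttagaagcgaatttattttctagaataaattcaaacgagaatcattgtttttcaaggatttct

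The heat shock element core occurred in the windows of cct-8 and cct-1, as GAATTTTC and GAATATTC, and not in those of cct-7 and cct-5. It is a palindromic pattern and was searched on both strands. Of the 944 windows at nuclear promoter peaks, 11.9% held it. In the 500 bases before the 5' end it occurred at 5 of the 8 genes (cct-1, cct-3, cct-5, cct-7 and cct-8), against 29.8% of all protein-coding genes. Thus cct-2, cct-4 and cct-6 lacked these letters in that stretch. A match describes the letters only, and binding of a heat shock factor was not measured.

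The other motifs were also searched on both strands. TGACG occurred in the windows of cct-5 and cct-8 and in 31.7% of all promoter peak windows. The letters of a splice acceptor, TTTCAG, occurred in the window of cct-5 and in 22.5% of all windows. The window of cct-1, like 21.5% of all windows, held AATTAA. None of the 4 windows held TATAAA (14.4% of all promoter peak windows did), the GC box letters GGGCGG (12.6%), the E-box CACGTG (5.19%) or the repeat GAGAGA (28.9%). TATAAA was found in the 500 bases before cct-1, cct-2, cct-3, cct-4 and cct-8, and in 54.0% of all such stretches. In these stretches TTTCAG was present at 6 of the 8 genes (65.4% of all genes), AATTAA at 5 (63.0%) and TGACG at 2 (40.7%). The GC box letters, the E-box and the GAGAGA repeat were present at none, against 10.9%, 8.61% and 30.0% of all genes.

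The longest run shared by windows of the 4 conservative peaks was ATTGCGGACTTG, in the windows of cct-5 and cct-8. It was picked from these windows after their sequence was seen. It stands in opposite orientation relative to the genes, at bases 86 to 97 of the cct-5 window and, as its reverse complement, from base 29 of the cct-8 window. The summit is base 101 in both. It occurred in 6 of the 944 promoter peak windows, these included. GC content was 46.3% at cct-8, 38.3% at cct-1, 51.7% at cct-7 and 38.8% at cct-5, so that cct-7 had the most GC-rich window of the 4. The median over promoter peak windows was 43.3%, with quartiles of 38.7 and 48.3%.

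The strongest CCT promoter peak was that of cct-8. It spans 1094286 to 1094438 on chromosome IV and had a signal of 124 in replicate 1 and 166 in replicate 2, or 145 ± 29.2 (SD, n = 2). Its summits in the replicates lay 432 and 434 bp upstream, 2 bp apart. With a signal of 292 in the conservative list it ranked 13 of 944 nuclear promoter peaks. Its −log10 IDR was 5, the highest value that the lists give.

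The next was that of cct-1, at 8185152 to 8185253 on chromosome II. Its signal was 79.8 in replicate 1 and 90.2 in replicate 2 (85.0 ± 7.41, SD, n = 2), and its −log10 IDR was also 5. It ranked 73 of 944 with a signal of 169 in the conservative list. The peaks of cct-8 and cct-1 were narrow, at 153 and 102 bp. The median nuclear peak was 270 bp wide and 6.37% of nuclear peaks were under 200 bp. Many peaks, those of cct-5 and cct-7 included, were exactly 270 bp wide. Whether this length was set in peak calling is not stated in the sources used here. A width under 200 bp is not particular to CCT genes, since strong promoter peaks were often narrow. The 2 promoter peaks most like each of these in signal, named below, were also narrower than the median. Peaks of 270 bp ranked near that of cct-1 as well.

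The peak of cct-7, at 1871820 to 1872089 on chromosome V, had a signal of 58.0 in replicate 1 and 55.4 in replicate 2 (56.7 ± 1.84, SD, n = 2). This was the smallest spread between replicates among the 4. It ranked 218 of 944 (signal 108 in the conservative list, −log10 IDR 4.12). The peak also covers T10B5.13, an annotated non-coding RNA gene, although its summit lies outside that gene.

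The peak of cct-5 was the weakest of the 4 and the least even. At 4508434 to 4508703 on chromosome III, its signal was 46.1 in replicate 1 and 30.1 in replicate 2 (38.1 ± 11.3, SD, n = 2). The log2 ratio of replicate 2 to replicate 1 was -0.61, while over 928 promoter peaks its median was 0.11 (SD 0.43), and 3.99% of them had a lower ratio. The peak ranked 452 of 944 in the conservative list with a signal of 79.5, close to the median of 77.98. In replicate 1 it passed the threshold (−log10 IDR 2.64) and in replicate 2 it did not (0.67). Of the conservative summits of the family it lay farthest from its 5' end and had the lowest −log10 IDR, 2.75.

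**Figure D1:**
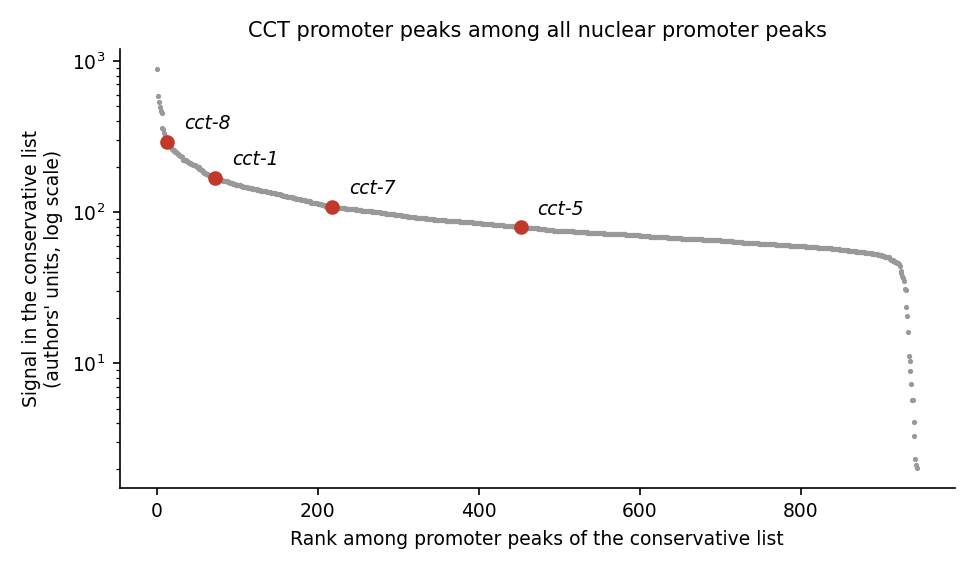
Signal in the conservative list (log scale, authors' units) against rank for all 944 nuclear promoter peaks, grey, with the 4 CCT promoter peaks in red. The peak of cct-8 is at rank 13, cct-1 at 73, cct-7 at 218 and cct-5 at 452.

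The order of the signals was cct-8, cct-1, cct-7 and cct-5 in both replicates. No neighbours in that order overlapped in their replicate values, with only 2 replicates to show the spread. By the smallest distance in log2 signal over the 2 replicates, the promoter peaks most like that of cct-8 were those of eel-1 (distance 0.11) and of F44E5.4 and F44E5.5 (0.14). F44E5.4 and F44E5.5 encode near-identical Hsp70 chaperones, so reads at their shared peak may not be placed uniquely. Those most like cct-1 were vig-1 (0.02) and F36A2.7 (0.05), most like cct-7 were F46F11.7 (0.03) and pqn-70 (0.06), and most like cct-5 were gfi-3 (0.01) and T24H10.1 (0.04).

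At cct-6 the call depended on the list. A peak at 5855846 to 5856115 on chromosome III, with its summit 294 bp upstream of cct-6, had a signal of 44.4 in replicate 1 and 16.8 in replicate 2 (30.6 ± 19.5, SD, n = 2). Its summit lay at the same base in the ranked lists of both replicates, 281 bp upstream. The signal of replicate 1 exceeded 97.8% of the nuclear peaks ranked in that replicate, and that of replicate 2 exceeded 59.7%. The −log10 IDR was 2.24 in replicate 1 and 0.19 in replicate 2. The signals at cct-6 and cct-5 overlapped. The −log10 IDR at cct-6 was 2.18 in the other ranked list of the series and 0.59 in the ranked list behind the conservative list.

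In the replicates' own thresholded lists, 5 of the 8 genes held a summit in replicate 1 (3.02% of all genes) and 3 in replicate 2 (3.04%). Replicate 1 called cct-1, cct-5, cct-6, cct-7 and cct-8, and replicate 2 called cct-1, cct-7 and cct-8. In these own lists cct-5 and cct-6 were thus called in replicate 1 alone, and cct-1, cct-7 and cct-8 in each. The peak of cct-5 was nevertheless in the conservative list, which was made from both replicates (−log10 IDR 2.75), and that of cct-6 was not (0.59).

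The genes cct-2, cct-3 and cct-4 had only ranked peaks that missed the threshold in every list. At cct-2 the replicates' peaks lay at different places, 316 bp upstream with a signal of 18.0 in replicate 1 and 12 bp downstream with 14.2 in replicate 2. At cct-3, replicate 1 had no ranked peak in the window and replicate 2 had one 123 bp downstream of the 5' end with a signal of 24.96. At cct-4, replicate 1 had one 46 bp upstream with a signal of 15.3, and replicate 2 had none in the window. The median signal of a nuclear ranked peak was 13.9 in replicate 1 and 15.2 in replicate 2, and the value at cct-2 exceeded 73.8% of ranked peaks in replicate 1 and 43.4% in replicate 2. The value at cct-4 exceeded 60.1% of them in replicate 1 and that at cct-3 exceeded 88.1% in replicate 2.

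**Figure D2:**
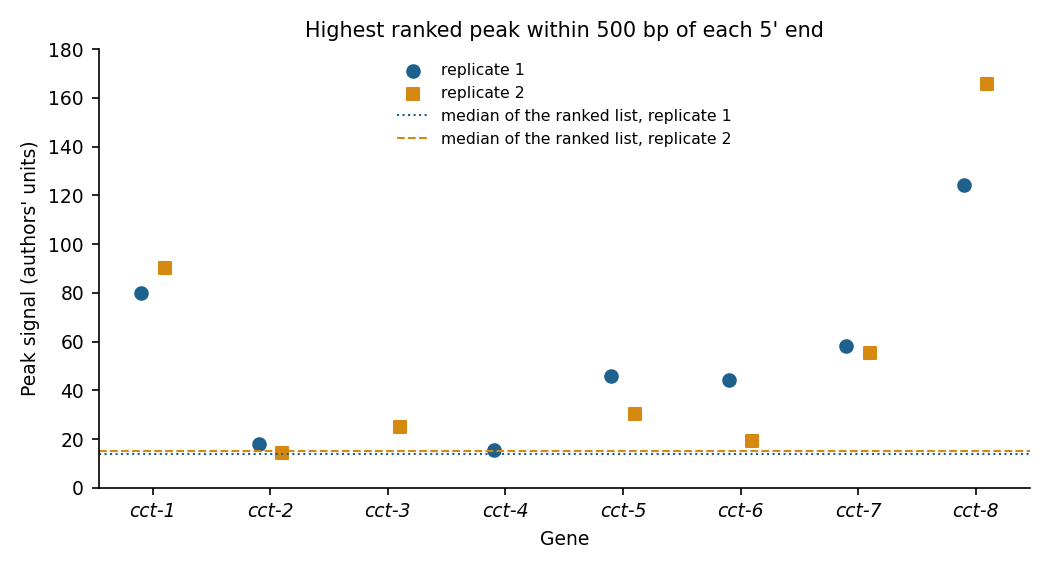
Signal (authors' units) of the highest ranked peak within 500 bp of each 5' end in replicate 1 (blue circles) and replicate 2 (orange squares), with the median of each nuclear ranked list as a line. A missing symbol means no ranked peak in the window; cct-8 and cct-1 stand highest, and the symbols of cct-2 and cct-4 lie between 14.2 and 18.0. At cct-6 the square is another peak, 139 bp downstream with a signal of 19.3, than the circle.

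All 8 genes had some ranked peak of the series within 500 bp, as did 55.8% of all protein-coding genes, and 6 of the 8 had one in both replicates, as did 25.4%. The best −log10 IDR in the ranked list behind the conservative list was 0.25 at cct-2, 0.16 at cct-3, 0.08 at cct-4 and 0.59 at cct-6. The family therefore parted into 4 genes at 2.75 or above and 4 at 0.59 or below. The peak nearest to the threshold from below was a further one at cct-7, 395 bp downstream of its 5' end, with a −log10 IDR of 1.96. The replicates' ranked peaks that overlap it had their summits at different places, 342 bp downstream in replicate 1 and 443 bp downstream in replicate 2. Their signals were 21.9 and 35.7, and their −log10 IDR values were 0.15 and 1.87. Further ranked peaks downstream of the 5' ends of cct-1 (384 bp) and cct-8 (286 bp) had a −log10 IDR of 0.20 and 0.22.

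**Figure D3:**
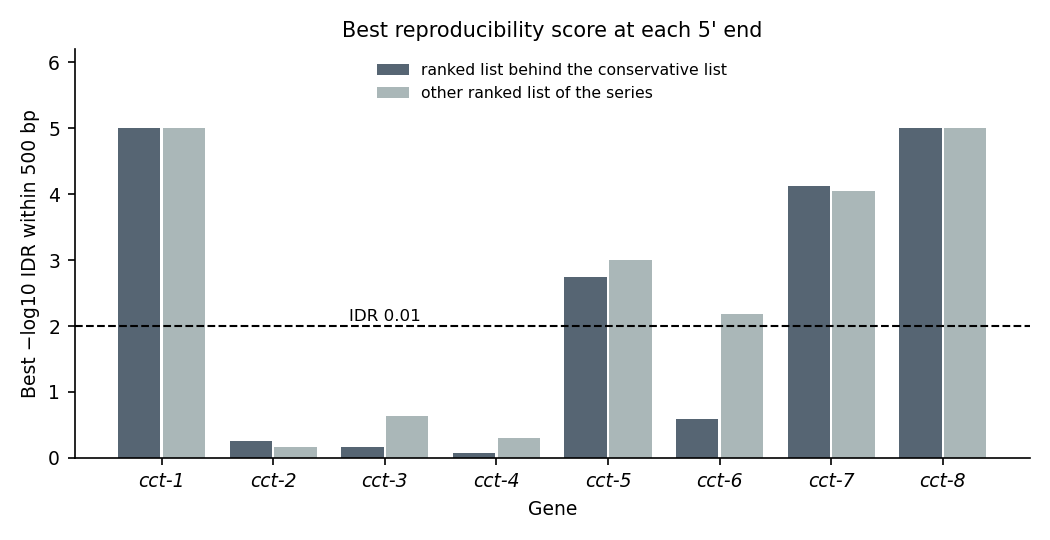
Best −log10 IDR of any ranked peak within 500 bp of each 5' end, in the ranked list behind the conservative list (dark bars) and the other ranked list of the series (light bars); the dashed line is an IDR of 0.01. Dark bars of cct-1, cct-5, cct-7 and cct-8 lie above the line, and at cct-6 the light bar (2.18) does and the dark one (0.59) does not.

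The summits that CCT genes held lay in the gap shared with a divergent neighbour and nearer to that neighbour's 5' end. At cct-8 the summit lay 187 bp upstream of Y55F3AR.2 and 434 bp upstream of cct-8. At cct-1 it lay 164 bp upstream of mig-5, which encodes a Dishevelled protein of Wnt signalling, and 256 bp upstream of cct-1. At cct-7 the distances were 148 bp to T10B5.4 and 291 bp to cct-7, and at cct-5 286 bp to F25F2.1 and 455 bp to cct-5. In 4 of 4 cases another protein-coding 5' end was thus nearer, which was so for 19.7% of all genes with a summit. That share is no like comparison, since it includes genes with no divergent neighbour close by. Of the 1134 genes with a summit, 460 had such a neighbour within 1000 bp, and the share among these was not computed. Where divergent genes share a summit, both 5' ends cannot be the nearer. A peak in a shared gap does not show which gene it belongs to.

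The gap between divergent 5' ends differed within the family. It was 420 bp at cct-1, 439 at cct-7, 459 at cct-4, 621 at cct-8 and 741 at cct-5. It was 1070 bp at cct-3 and 1190 at cct-2, which held no summit. At cct-6 it was 331 bp to alh-9, an aldehyde dehydrogenase gene, in the Ensembl annotation, where the summit of the cct-6 peak lay 37 bp upstream of alh-9. In the RefSeq annotation alh-9 begins at 5857209 and the gap is 1522 bp. The RefSeq 5' ends of the 8 cct genes and of their other upstream neighbours were the same. With Ensembl, 6 of the 8 genes had a divergent neighbour within 1000 bp (17.2% of all genes), and 4 of these 6 held a summit, against 13.4% of all genes so placed. The exceptions were cct-6 and cct-4, whose upstream neighbour is nst-1, a nucleostemin gene of ribosome production.

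**Figure D4:**
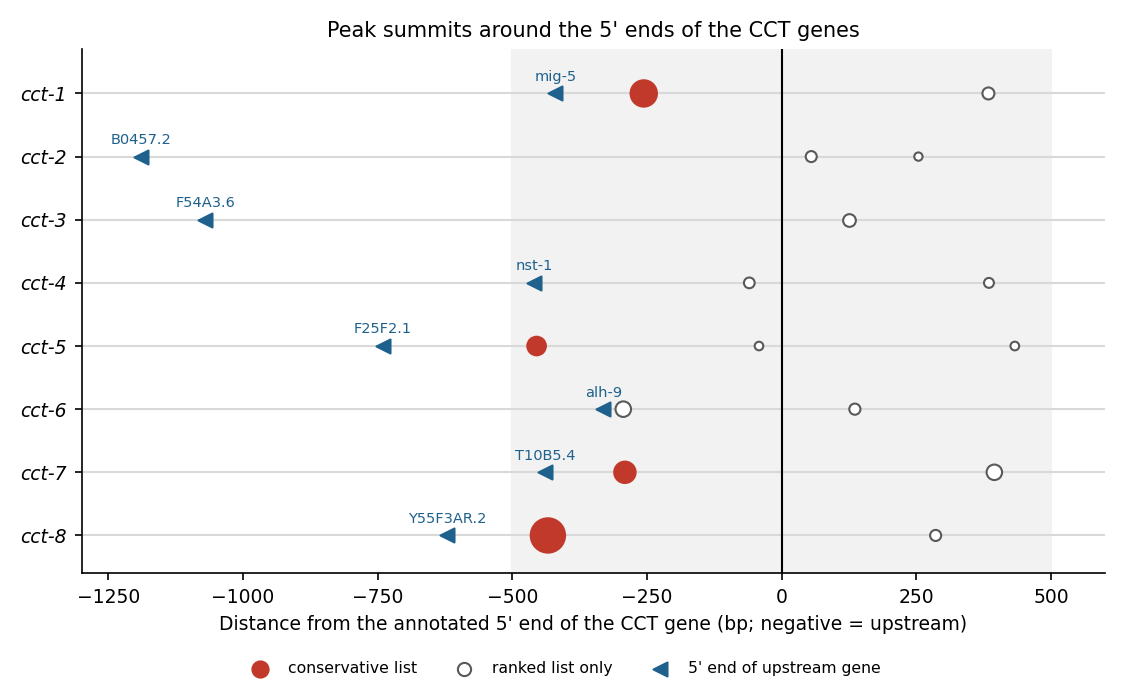
Summits of ranked peaks of the series by distance (bp) from the 5' end of each CCT gene, with point area growing with signal; red points are in the conservative list, open points are not, and blue triangles mark the 5' end of the divergent upstream gene. Peaks were drawn only within 500 bp (grey band). The red points at cct-1, cct-5, cct-7 and cct-8 lie between the CCT gene and its neighbour, and nearer to the neighbour.

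On the downstream side, cct-2 is followed after 25 bp by mrpl-50, a gene of the mitochondrial ribosome on the same strand. The gene cct-8 is followed after 94 bp by csn-4, a subunit of the COP9 signalosome, cct-3 after 102 bp by F54A3.2, cct-5 after 142 bp by atf-7, a transcription factor of immunity, and cct-6 after 260 bp by ddx-23, a helicase of splicing, all on the strand of the cct gene. The 3' ends of cct-1 and cct-7 overlap genes of the other strand (T05C12.8 and zig-11), and cct-4 has its next neighbour, nlp-55, 9117 bp away.

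The genes cct-2, cct-4 and cct-7 had a conservative summit at most 500 bp past their 3' end, which makes 3 of the 8 genes, against 3.57% of all protein-coding genes. They were singled out after their values were seen. The summit lay 127 bp past the end of cct-2 (8929807 to 8930076 on chromosome II, signal 31.2 in replicate 1 and 47.1 in replicate 2), where it is 101 bp from the 5' end of mrpl-50 and so counts as a promoter summit of that gene. It lay 91 bp past cct-4 (8285667 to 8285936 on chromosome II, 42.2 and 33.8), with no annotated gene at the summit and no protein-coding 5' end within 500 bp. It lay 166 bp past cct-7 (1875670 to 1875743 on chromosome V, 36.2 and 56.5), inside zig-11. Neither cct-2 nor cct-4 held a conservative summit at its 5' end.

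Genes that work with CCT differed among themselves. Prefoldin, which hands unfolded actin and tubulin to the chaperonin, has 6 subunit genes, and pfd-1, pfd-3 and pfd-6 held a summit, beside the 5.68% of all protein-coding genes. The peak at pfd-1 had a signal of 78.6 in replicate 1 and 77.0 in replicate 2 (77.8 ± 1.19, SD, n = 2), close to that of cct-1, and is shared with F01G4.6. The signals at pfd-3 were 44.6 and 28.0 (36.3 ± 11.7, n = 2), and those at pfd-6 were 23.5 and 40.7 (32.1 ± 12.2, n = 2). The replicates ranked these 2 genes in opposite order, pfd-3 being the higher in replicate 1 and pfd-6 in replicate 2. In the own lists of replicates 1 and 2, 2 and 1 prefoldin genes held a summit, where 3.02% and 3.04% of all genes did.

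Of the substrates, 3 of 16 tubulin genes and 0 of 5 actin genes held a summit, beside the 5.68% of all genes. The α-tubulin gene tba-2 had signals of 87.2 and 91.99 in replicates 1 and 2 (89.6 ± 3.35, SD, n = 2), tba-7 had 42.1 and 44.4 (43.3 ± 1.64, n = 2), and the β-tubulin gene tbb-1 had 57.1 and 52.9 (55.0 ± 2.96, n = 2). The peak of tbb-1 is shared with rib-2. The value at tba-2 was close to that at cct-1, and that at tbb-1 to that at cct-7. Actin and tubulin genes include near-identical copies, where reads may not be placed uniquely. The mitochondrial chaperonin gene hsp-60, whose protein forms a ring of another class, held none within 500 bp. Within 1000 bp, hsp-60, 1 of 5 actin genes and 4 of 16 tubulin genes held a summit, against 7.72% of all genes. When every summit went to the nearest 5' end alone, 2 of 5 actin genes and 5 of 16 tubulin genes held one. In that setting hsp-60 held none, and 9.6% of all genes held one.

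Among other protein quality genes, 10 of 52 heat shock and DnaJ genes (19.2%) and 8 of 33 proteasome genes (24.2%) held a summit, where 4 of 8 CCT genes and 5.68% of all genes did. The order of these shares depended on the window and on the rule for assigning summits. Within 250 bp, 0 of 8 CCT genes, 6 of 52 heat shock and DnaJ genes and 7 of 33 proteasome genes held a summit. The share of all genes was then 3.52%. When every summit went to the nearest 5' end alone, the respective counts were 2 of 8, 8 of 52 and 14 of 33. The share of all genes was then 9.6%. In the replicates' own lists the proteasome count was 2 in replicate 1 and 4 in replicate 2, and the heat shock and DnaJ count was 9 and 7. The lists were made by gene symbol, so the Hsp70 genes F44E5.4 and F44E5.5, whose peak ranked 18 of 944, are not in them. In the conservative list the highest signals of the listed genes were those of dnj-13 (122.0 and 131 in replicates 1 and 2) and hsp-3, an Hsp70 of the endoplasmic reticulum (119 and 123). The peak of cct-8 had higher values than both in each replicate. The other heat shock and DnaJ genes with a summit were dnj-9, dnj-14, dnj-19, dnj-28, dnj-29, hsp-1, hsp-6 and hsp-110, with replicate means from 32.4 to 77.2. The proteasome genes were pas-1, pas-4, pbs-1, pbs-7, rpn-3, rpn-9, rpn-10 and rpt-6, with replicate means from 27.4 to 73.9, and rpn-3 shares its peak with hsp-110. These shares were not tested against each other, since the lists were chosen with results known.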

How the data were processed

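ChIP-seq of tagged ARID-1 was analysed from 8 peak lists that the authors deposited on the ce11 build, per the labels and the file notes. Each deposited list holds peak signal and summit position, and the deposited ranked lists add a −log10 IDR. Which aligner and caller made them is not stated in the sources used here. The ranked list behind the conservative list was taken as the one whose component intervals are also intervals of the replicates' ranked lists (48.5% and 46.6%, against 4.01% and 0.00434% for the other). All 2330 conservative peaks were found in it, with a −log10 IDR of at least 2.

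Positions are 1-based. Gene models were those of Ensembl release 115 for WBcel235, and the coding sequence of 8 of 8 members began with ATG in the RefSeq genome used. A conservative peak was matched to each replicate's ranked list by the highest signal among overlapping peaks (at least 1 bp), and the SD is over the 2 replicates. Members and gene lists were chosen with earlier results of these data known, so no test was run. Named genes are the 8 members, genes that share their summits or neighbour them, members of the other lists with a summit, and, for each member with a summit, the 2 promoter peaks nearest in log2 signal. Windows, lists, thresholds and the rule for assigning summits were varied. Assignment to windows was tested on simulated data. Python 3.11.15, pandas 2.3.3 and numpy 2.4.6 were used.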

Additional observations from a re-analysis of the deposited data

How the results depend on the processing

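The count of CCT genes with a summit, 4 in the main setting, was 3 to 5 in the replicates' own lists and 5 in the other list of the series. It was 4 with windows of 1000 bp (1542 of all protein-coding genes, 7.72%), with peaks at or above the median signal (611, 3.06%), with ranked peaks of an IDR of at most 0.05 (1633, 8.18%), with any overlap of peak and window (1249, 6.25%), and with the 5' end of any transcript (1222, 6.12%). It was 0 with windows of 250 bp, since the 4 summits lie 256 to 455 bp away. When every summit went to the nearest 5' end alone, none of the 4 promoter summits stayed with a CCT gene, and the count was 2 (cct-4 and cct-7), through other peaks past the 3' ends of these genes. Over all protein-coding genes, 1134 (5.68%) held a summit. The count was 1088 in the other list, 604 to 608 in the replicates' own lists, 704 with 250 bp windows (3.52%) and 1918 with nearest 5' ends (9.6%). Signals did not change when the ranked peak with the nearest summit was taken, and ranged over the replicates from 79.8 to 90.2 at cct-1, 30.1 to 46.1 at cct-5, 55.4 to 58.0 at cct-7 and 124 to 166 at cct-8. No paired analysis was possible because there is 1 group. Depth is unknown, so no limit of detection can be given for the genes without a summit.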

Other observations

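The run ATTGCGGACTTG, found in the windows of cct-5 and cct-8, has 21 copies in the nuclear genome, counting both strands. Of these, 6 lay within 100 bp of a conservative summit, a zone that covers 0.462% of the nuclear genome, and 16 lay in a ranked peak of the series, where such peaks cover 20.3%. The genome shares are no like comparison, since the copies of cct-5 and cct-8 are among the 16 by construction. They are likewise among the 6 near a conservative summit. The other 4 lay 25 bp from the summit at mcm-4, which encodes a replicative helicase subunit, 48 bp from that at rpl-5 and col-38, 35 bp from that at bli-6 and hrpf-2, and 33 bp from that at C34D4.4. Signals of these 4 peaks in the conservative list were 90.55, 86.2, 56.4 and 68.4. No test was run, since the run was picked from the windows that it describes.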
